A study of Mus musculus with 8 samples.

Results

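The RNA of 10 mouse genes was followed across 6 groups of CD8 T cells: the talins Tln1 and Tln2, the outer membrane GTPases Rhot1 and Rhot2, the motor adaptors Trak1 and Trak2, the fusion GTPases Mfn1, Mfn2 and Opa1, and the fission GTPase Dnm1l. They were chosen by symbol from the 32285 genes of the deposited matrices, and all 10 were found, each as 1 row. The T cells came from 3 donor mice, were activated, and shared a culture with stromal cells of bone marrow (BMSCs) whose mitochondria carried the red fluorescent protein dsRed. A sort then split them by dsRed into a MitoPositive arm, which held it, and a MitoNegative arm, which did not. The study asked how T cells that took up stromal mitochondria differ from those that did not. Cells were sequenced after the sort (d0, "culture") or after 7 days in B6 mice bearing B16KVP tumors, when they were taken from spleen and tumor. Each of the 6 groups (culture, spleen or tumor, MitoPositive or MitoNegative) held 3 hashtagged samples, 1 per donor. After transfer each arm of a donor had its own recipient mice, so recipient and arm cannot be told apart, whereas spleen and tumor of 1 arm shared recipients. The sort before transfer defines the arms at d7 too.

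Talins link the tails of integrins to actin filaments and switch integrins to their binding state, and Tln1 is the talin best known from leukocyte adhesion. Mitochondria ride on microtubules through Miro proteins (encoded by Rhot1 and Rhot2) in the outer membrane, which bind the TRAK adaptors that recruit kinesin and dynein motors. Mitofusins (Mfn1, Mfn2) join outer membranes, Opa1 joins inner membranes and shapes cristae, and Drp1 (encoded by Dnm1l) constricts the organelle for division. In T cells, fusion and fission are known to differ between memory and effector states.

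Levels are given as CPM: the gene's UMIs (counted RNA molecules), scaled to the same total in every sample. Samples held 30 to 3423 cells and 323344 to 26592848 UMIs. The smallest were the MitoNegative tumor samples (30, 85 and 116 cells for donors 1, 2 and 3) and the MitoPositive spleen sample of donor 3 (49 cells). Cells from tumors carried more UMIs, with sample medians of 10067 to 21893.5 against 5298.5 to 7365 in the spleen and 5875 to 8599 in culture. All 6 genes of the T cell list (Cd3d, Cd3e, Cd3g, Trac, Cd8a, Cd8b1) were present in every sample, summing to 2825 to 5693 CPM. The MitoNegative tumor sample of donor 3 stood apart, with 1477 CPM of 7 melanoma markers, while the other samples held 1.18 to 141 CPM. Libraries shared 1 to 6 cell barcodes per pair.

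No member passed the test between MitoPositive and MitoNegative cells in culture, in spleen or in tumor. By edgeR's quasi-likelihood test with Benjamini-Hochberg adjustment over all genes (threshold 0.05), 0 of 9 tested members were called in culture, where 9.26% of 11436 genes were called (6.03% higher and 3.23% lower in MitoPositive cells); the arms overlapped for every member there, while 28.1% of genes did not overlap. In tumor it was 0 of 10, where 0.401% of 11983 genes were called (0.192% higher and 0.209% lower, or 23 and 25 genes, against 11 and 27 with DESeq2's size factors). In spleen it was 0 of 10, where 2.78% were called (0.876% higher and 1.90% lower). At an unadjusted p under 0.05 there were 0, 2 and 1 members in culture, tumor and spleen. The share of all genes at that threshold is not given here, so these counts are not read as a result about the members. DESeq2 called 0 members in each comparison. The difference between the tumor and the spleen effect was called for 0 of 10 members and for 0% of all genes (1591 at an unadjusted p under 0.05; DESeq2 called 160 genes and 0 members).

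**Figure D1:**
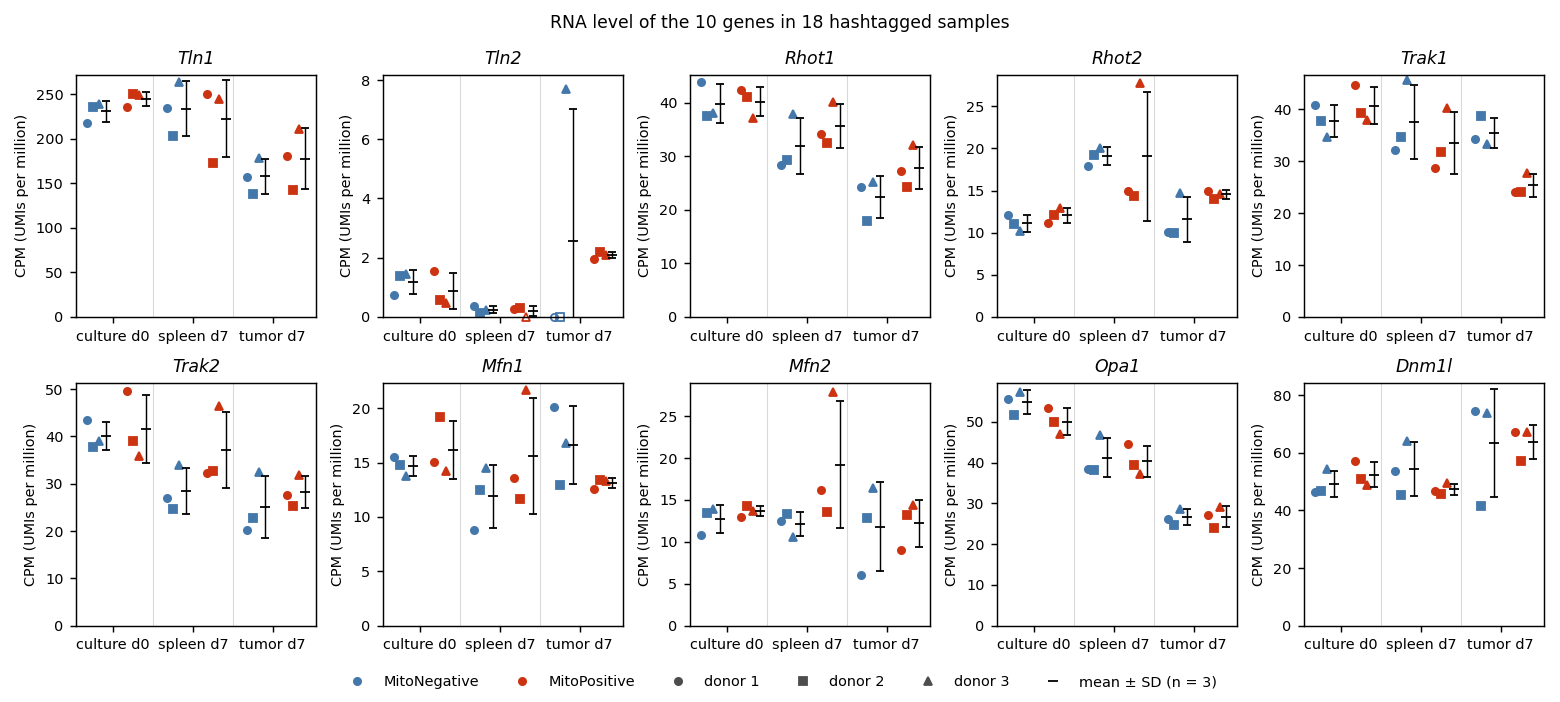
Level of each gene (y axis, CPM from 0) in the 18 hashtagged samples by tissue and day (x axis). Points are samples, coloured by arm and shaped by donor, open where no UMI was counted, and dashes with bars give mean ± SD over 3 donors. Opa1 steps down in CPM from culture to spleen to tumor in both arms, whereas the arms of a tissue lie on top of each other for most genes. Its step from culture to spleen was not called in MitoPositive cells.

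Tln1, the integrin activator, stood at 235, 250 and 248.7 CPM in MitoPositive and at 218, 235 and 239 CPM in MitoNegative cells of donors 1, 2 and 3 in culture. MitoPositive values were higher in every donor, but the groups overlapped. The log2 difference was 0.13 ± 0.07 (SE, n = 3 per group, adjusted p = 0.337 by edgeR), with a 95% interval from 0.978-fold to 1.22-fold. In tumor Tln1 stood at 181, 142 and 211 against 157, 138 and 178 CPM, again higher in every donor with overlapping groups, and the log2 difference was 0.23 ± 0.11 (adjusted p = 0.400). In spleen the values were 250, 173 and 244 against 235, 203 and 264 CPM, with a log2 difference of -0.06 ± 0.11 (adjusted p = 0.870). The widest of these intervals reached 1.38-fold, so an arm difference beyond that size lies outside the interval for Tln1 in tumor.

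Tln2, the second talin, was counted too rarely in culture for a test. Its MitoPositive samples held 11, 5 and 5 UMIs (1.56, 0.564 and 0.486 CPM) and its MitoNegative samples 4, 8 and 9 UMIs (0.723, 1.37 and 1.46 CPM). Donor 1 was higher in the MitoPositive arm and donors 2 and 3 in the MitoNegative arm. In the transferred cells the arm differences had intervals from 0.221-fold to 5.82-fold in spleen and from 0.211-fold to 2.14-fold in tumor, so changes of several fold were not detectable at this depth. The MitoNegative side of the tumor interval rests on 22 UMIs of donor 3, with 0 in donors 1 and 2. Over 12 alternatives the log2 difference in tumor ran from -0.86 to 7.43, so the upper end of that interval sets no limit.

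Rhot1, a Miro GTPase of the outer membrane, had the lowest adjusted p among the members in tumor. Its MitoPositive samples stood at 27.2, 24.2 and 32.003 CPM and its MitoNegative samples at 24.2, 17.9 and 25.2 CPM. Every donor was higher in the MitoPositive arm, and the groups overlapped. The log2 difference was 0.41 ± 0.15 (edgeR adjusted p = 0.263), and the adjusted p ranged from 0.197 to 0.822 over 14 alternatives. In culture and spleen the log2 differences of Rhot1 were 0.05 ± 0.09 and 0.19 ± 0.12 (adjusted p = 0.774 and 0.533). Rhot2, the other Miro GTPase, differed by 0.17 ± 0.14 in culture, by 0.32 ± 0.23 in tumor and by -0.23 ± 0.19 in spleen (adjusted p = 0.518, 0.645 and 0.646).

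Trak1, which connects Miro to kinesin, was the member whose arms did not overlap in tumor. It stood at 24.0, 24.1 and 27.8 CPM in MitoPositive and at 34.2, 38.7 and 33.3 CPM in MitoNegative tumor cells, without overlap. Over all genes 12.7% did not overlap in this comparison. The log2 difference was -0.37 ± 0.16 (edgeR adjusted p = 0.344), and the adjusted p ranged from 0.232 to 0.787 over 14 alternatives. In culture every donor had the higher Trak1 value in the MitoPositive arm, at 0.15 ± 0.09 (adjusted p = 0.375), and in spleen every donor had the lower one, at -0.19 ± 0.14 (adjusted p = 0.613). Trak2, the paralogous adaptor, stood in spleen at 32.3, 32.8 and 46.4 CPM in MitoPositive and at 27.0, 24.6 and 34.0 CPM in MitoNegative cells. It was higher in every donor, by 0.35 ± 0.13 on the log2 scale (edgeR adjusted p = 0.197, range 0.113 to 0.860 over 14 alternatives). The MitoPositive spleen values of donor 3 rest on 49 cells and, for Trak2, on 15 UMIs.

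The fusion and fission genes did not pass between arms either. Opa1, the inner membrane fusion GTPase, was the only one of the 9 tested members with a negative log2 difference in culture, with 53.4, 49.9 and 46.9 against 55.7, 51.7 and 57.3 CPM and a log2 difference of -0.10 ± 0.08 (edgeR adjusted p = 0.524). Its arm differences in tumor and spleen were 0.07 ± 0.15 and 0.07 ± 0.12 (adjusted p = 0.901 and 0.875). Dnm1l, the fission GTPase, differed by 0.13 ± 0.09, 0.11 ± 0.15 and -0.13 ± 0.14 in culture, tumor and spleen (adjusted p = 0.452, 0.855 and 0.745). Mfn1 differed by 0.18 ± 0.14, -0.18 ± 0.25 and 0.27 ± 0.22 in the same order (adjusted p = 0.490, 0.834 and 0.653). Mfn2 was without overlap in spleen (16.2, 13.6 and 27.8 against 12.5, 13.4 and 10.6 CPM), where 19.5% of genes did not overlap, with a log2 difference of 0.40 ± 0.25 (adjusted p = 0.511). The highest of these Mfn2 values, in donor 3, rests on 9 UMIs.

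**Figure D2:**
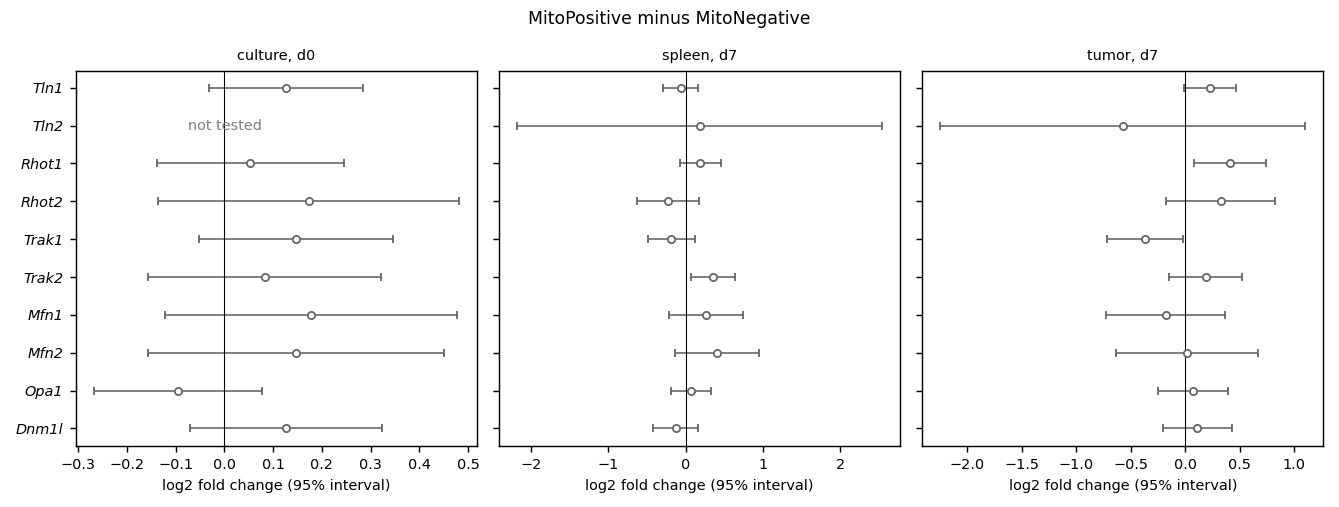
Log2 fold change of MitoPositive over MitoNegative cells (x axis, a separate scale in each panel) for each gene (y axis) in culture, spleen and tumor, with 95% intervals. Open points did not pass an adjusted p of 0.05, which is the case for every gene shown; Tln2 was not tested in culture, and its intervals are the widest in the other panels.

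In culture the tested members had a median log2 difference of 0.13, with 8 of 9 above 0, beside a median of -0.0035 over all genes. In tumor their median was 0.09 (7 of 10 above 0) beside 0.07 over all genes, and in spleen 0.13 (6 of 10 above 0) beside 0.0003. Genes of the G2/M phase moved with the arms: 12 of 12 were higher in MitoPositive culture cells (summed level 561 to 896 CPM against 184 to 342 CPM), and 8 of 12 were lower in MitoPositive spleen cells (225 to 1280 against 823 to 1531 CPM). With the cycling clusters left out, 0 members were called in culture and 0 in spleen. In tumor this left out almost no cells (993 of 995 and 84 of 85 remained in the samples of donor 2), so the part of these genes there was not tested. Of the hashtag maps that the labels give for culture, the deposited list's was used; under the other map 0 members and 0 genes were called (393 genes at an unadjusted p under 0.05).

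Of the 7 lists of genes that work with the members, 3 held a gene that passed between arms, with counts read against the shares of all genes given above (6.03% higher in culture, 0.876% higher and 1.90% lower in spleen, 0.209% lower in tumor). In culture 1 of 10 tested fission adaptors and regulators was higher, Mtfr2 (a fission regulator, 3.43 against 0.939 CPM, log2 difference 1.93 ± 0.41, edgeR adjusted p = 0.0108). Of 18 tested talin partners and integrin adhesion genes 1 was higher, Itgal (the alpha chain of the integrin LFA-1, 0.30 ± 0.08, adjusted p = 0.025). Of 18 tested actin protrusion and nanotube genes 1 was higher, Rac2 (a GTPase of blood cells that acts on actin, 0.27 ± 0.08, adjusted p = 0.0454). In spleen Itga4, the alpha 4 integrin chain, was higher by 1.81 ± 0.31 (567 against 169 CPM, adjusted p = 0.0146), as 1 of 18 adhesion genes, and Cfl1, the actin severing protein cofilin, was lower, with a log2 difference of -0.42 ± 0.10 (adjusted p = 0.0448), as 1 of 20 protrusion genes. In tumor 1 of 18 adhesion genes was lower, Parvb (beta-parvin, -4.25 ± 0.74, 0.218 against 5.15 CPM, adjusted p = 0.043). Most markers of other cells had negative differences there too, with 0 of them called. The medians were -3.62 over 5 tested melanoma markers, -1.59 over 10 myeloid markers (1 positive) and -3.67 for the 1 tested stromal marker. B cell markers had a median of -0.17 (1 of 3 tested positive), and the 1 tested CD4 and regulatory T cell marker gave 0.73. The summed melanoma level was 1.18 to 58.2 CPM in MitoPositive and 6.04 to 1477 CPM in MitoNegative tumor samples (2 to 7 of 7 markers with a UMI in each arm), and the myeloid level 44.9 to 85.6 and 38.3 to 292 CPM. Their part in the Parvb value was not tested.

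Larger differences lay between tumor and spleen. In MitoPositive cells 3 of 10 members were called (2 higher, 1 lower in tumor), where 53.3% of 11983 genes were called (26.8% higher and 26.5% lower). In MitoNegative cells 5 of 10 were called (1 higher, 4 lower), where 42.6% were called (19.8% higher and 22.8% lower). Opa1 was lower in tumor in both arms, Dnm1l was higher in MitoPositive cells, and Tln1, Rhot1 and Rhot2 were lower in MitoNegative cells. Tln2 was called higher in both arms, but it passed the count filter only through its tumor samples. The members' shares were thus below the background in MitoPositive cells and near it in MitoNegative cells. Their median log2 difference was -0.22 and -0.06, beside -0.02 and -0.08 over all genes.

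Opa1 took up a smaller share of the RNA in every tumor sample than in any spleen sample. In MitoPositive cells it stood at 27.2, 23.9 and 29.1 CPM in tumor and at 44.6, 39.5 and 37.1 CPM in spleen. In MitoNegative cells it stood at 26.2, 24.8 and 28.7 CPM in tumor and at 38.5, 38.3 and 46.8 CPM in spleen. Tumor and spleen did not overlap in either arm, which held for 57.6% of all genes in the MitoPositive and 47.9% in the MitoNegative comparison. Opa1 fell by 0.56 ± 0.12 on the log2 scale in MitoPositive cells (SE, n = 3 per group, edgeR adjusted p = 0.00261) and by 0.56 ± 0.14 in MitoNegative cells (adjusted p = 0.00791). Counted per cell the order was the reverse: tumor cells held 0.432 ± 0.06 Opa1 UMIs (SD) and spleen cells 0.248 ± 0.03 in the MitoPositive arm, with more UMIs per tumor cell in all. With every cell thinned to 3000 UMIs, and cells below that left out, Opa1 fell by 0.70 in MitoPositive cells (adjusted p = 0.00395) and by 0.54 in MitoNegative cells (adjusted p = 0.234). The MitoPositive call was lost without donor 1 (adjusted p = 0.0876) and without donor 2 (0.0864). The MitoNegative call was lost without donor 1 (0.061), donor 2 (0.121) or donor 3 (0.116), and without the MitoNegative tumor sample of donor 3 alone (0.0549).

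Of the 4 members that were lower in MitoNegative tumor cells, Opa1 and Rhot1 have a window of RefSeq sequence before their start that overlaps no annotated exon. These windows are shown because the levels of both genes moved in the same direction there, and each ends at the last base before the gene's first annotated base. For Opa1 (chromosome 16, GRCm38, plus strand) the window is chr16:29579084-29579333, 250 bases, and for Rhot1 (chromosome 11, plus strand) it is chr11:80208801-80209018, 218 bases. Both lie outside the transcribed gene, and capitals mark matches to the motifs searched on both strands.
Opa1: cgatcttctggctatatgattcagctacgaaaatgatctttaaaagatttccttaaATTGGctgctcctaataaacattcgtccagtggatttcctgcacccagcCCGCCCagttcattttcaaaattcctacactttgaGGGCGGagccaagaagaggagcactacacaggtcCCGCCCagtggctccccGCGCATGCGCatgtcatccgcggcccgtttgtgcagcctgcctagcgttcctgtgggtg
Rhot1: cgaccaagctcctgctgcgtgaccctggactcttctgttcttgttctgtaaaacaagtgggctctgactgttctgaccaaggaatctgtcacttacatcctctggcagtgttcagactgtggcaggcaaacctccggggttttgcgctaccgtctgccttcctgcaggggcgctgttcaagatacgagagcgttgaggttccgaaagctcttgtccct

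The motifs searched were the GC box (GGGCGG), the CCAAT box (CCAAT), the core of ETS factor sites (CCGGAAG), the E-box (CACGTG), the cAMP response element (TGACGTCA) and the site of NRF1, a regulator of nuclear genes for mitochondrial proteins, which is the last run of capitals in the Opa1 window. The Opa1 window held 3 GC boxes, 1 CCAAT box and 1 NRF1 motif, with no match to the other 3. Over 32817 RefSeq promoters, 250-base windows held these in the following shares: 32.7% held a GC box, 33.8% a CCAAT box and 0.777% the NRF1 motif. The Rhot1 window held none of these 6 letter strings. A match describes the letters and is not a measured binding site.

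Dnm1l, which divides mitochondria, went the other way from Opa1 in MitoPositive cells. It stood at 67.4, 57.0 and 67.1 CPM in tumor and at 46.8, 45.8 and 49.5 CPM in spleen, with no overlap, as for 57.6% of all genes (in either direction). The rise was 0.50 ± 0.14 on the log2 scale (edgeR adjusted p = 0.00799), and 0.53 with cells thinned to 3000 UMIs (adjusted p = 0.0121). It did not pass without donor 1 (0.44, adjusted p = 0.106). In MitoNegative cells the values were 74.5, 41.7 and 73.9 CPM in tumor and 53.7, 45.4 and 64.2 CPM in spleen, with overlap and a log2 difference of 0.27 ± 0.15 (adjusted p = 0.164). The difference between the 2 arms' tissue effects was 0.24 ± 0.20 (adjusted p = 0.672). Gm49521, an antisense gene on the opposite strand that shares 9757 bases with Dnm1l, was higher in MitoPositive tumor cells too, at 11.8 against 4.38 CPM (1.25 ± 0.23, adjusted p = 0.000719), and its part in the Dnm1l counts was not tested.

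Tln1 fell in MitoNegative tumor cells, to 157, 138 and 178 CPM from 235, 203 and 264 CPM in spleen. Tumor values lay below every spleen value, in a comparison where 47.9% of all genes did not overlap (in either direction). The log2 difference was -0.50 ± 0.11 (edgeR adjusted p = 0.00303), but -0.19 with cells thinned to 3000 UMIs (adjusted p = 0.432) and -0.48 without donor 2 (adjusted p = 0.053). In MitoPositive cells the groups overlapped, each donor was lower in tumor, and the log2 difference was -0.21 ± 0.11 (adjusted p = 0.116; 0.0463 by DESeq2). The difference between the arms' tissue effects was 0.29 ± 0.15 (adjusted p = 0.447). Counted per cell, Tln1 stood at 2.87 ± 1.39 UMIs (SD) in MitoNegative tumor cells and at 1.71 ± 0.37 in spleen cells, so the lower value belongs to its share of the RNA.

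The Miro genes were also lower in the same arm, with calls that were lost under more alternatives. Rhot1 stood at 24.2, 17.9 and 25.2 CPM in MitoNegative tumor cells and at 28.4, 29.4 and 37.9 CPM in spleen, and fell by 0.47 ± 0.15 (edgeR adjusted p = 0.0239). Rhot2 stood at 10.1, 9.92 and 14.7 CPM in tumor and at 17.97, 19.3 and 20.02 CPM in spleen, and fell by 0.60 ± 0.23 (adjusted p = 0.0497). Neither overlapped, in a comparison where 47.9% of all genes did not overlap. Over 14 alternatives Rhot1 passed under 4 and Rhot2 under 3. Both calls were lost without any 1 donor, with DESeq2's size factors (edgeR adjusted p = 0.0589 and 0.0861) and after thinning (0.476 and 0.713). That of Rhot2 was also lost without barcodes of other cell markers (0.0881). Tumor values of donors 1 and 2 rest on 12 and 18 UMIs for Rhot1 and on 5 and 10 for Rhot2. In MitoPositive cells Rhot1 differed by -0.25 ± 0.13 (adjusted p = 0.110) and Rhot2 by -0.05 ± 0.19 (adjusted p = 0.859). Rhot2 shares 81 bases at its start with Wdr90 on the same strand (Gm26694 and Gm20683 also overlap it and are not among the genes of the matrices), and Wdr90 was not called in the MitoNegative comparison (0.44 ± 0.47, adjusted p = 0.479).

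Tln2 had few UMIs everywhere but most in tumor. MitoPositive tumor samples held 5, 36 and 24 UMIs in 172, 995 and 670 cells (1.97, 2.19 and 2.09 CPM), and MitoPositive spleen samples held 2, 4 and 0 UMIs in 1146, 2290 and 49 cells (0.279, 0.313 and 0 CPM). Summed over donors, 65 UMIs were counted in 1837 tumor cells (exact Poisson 95% interval 50.2 to 82.8) and 6 in 3485 spleen cells (2.20 to 13.1), intervals that cover counting error only. The rise was 2.66 ± 0.87 on the log2 scale (edgeR adjusted p = 0.0214), 3.70 after barcodes with 3 or more UMIs of stromal, myeloid, melanoma and B cell markers were left out (an alternative chosen after seeing the data, adjusted p = 0.0018), and 2.58 without donor 1 (adjusted p = 0.107). After thinning, and without donor 2, Tln2 was too sparse to be tested. It passed the count filter of the d7 fit only through tumor samples, where it is high. The call is therefore no independent support for that higher level. In MitoPositive tumor 1 of the 65 UMIs lay in the 10 cells with 3 or more melanoma marker UMIs, and 64 lay in cluster 2 of the d7 clustering, in which 99.4% of cells carried RNA of at least 1 Cd3 gene. That cluster held 1163 of the 1837 cells and had the highest median depth of the d7 clusters (21355.5 UMIs). Many UMIs of any gene therefore fall in it, and the source of the Tln2 RNA was not tested.

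The Tln2 value of MitoNegative tumor cells came from 1 sample. Donors 1 and 2 held 0 UMIs, where 3 UMIs would give 6.04 and 2.98 CPM, and donor 3 held 22 UMIs in 116 cells (7.71 CPM). That sample is the one with 1477 CPM of melanoma markers and 47.6 CPM of stromal markers, and 13 of its 22 Tln2 UMIs lay in 3 of its 5 cells with 3 or more melanoma UMIs, up to 7 in 1 cell. The fitted difference from spleen, where the samples held 10, 1 and 1 UMIs, was 3.42 ± 0.93 (edgeR adjusted p = 0.0107), and it turned to -4.45 without donor 3 (adjusted p = 0.597) and to -4.27 without that sample alone (adjusted p = 0.529). Cells with 3 or more melanoma marker UMIs were also counted in culture, which had no tumor (11 MitoNegative and 17 MitoPositive cells), with 0 Tln2 UMIs among them.

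The other 4 members did not pass between tissues. Trak1 and Trak2 were each lower without overlap in MitoPositive tumor cells, where 57.6% of all genes did not overlap (in either direction). Their log2 differences were -0.24 ± 0.14 and -0.24 ± 0.13 (edgeR adjusted p = 0.183 and 0.151). In MitoNegative cells they differed by -0.06 ± 0.16 and -0.07 ± 0.15 (adjusted p = 0.803 and 0.885). Mfn1, the outer membrane fusion gene, differed by 0.05 ± 0.22 and 0.50 ± 0.25 in MitoPositive and MitoNegative cells (adjusted p = 0.871 and 0.135). Mfn2 differed by -0.28 ± 0.26 and 0.11 ± 0.31 (adjusted p = 0.392 and 0.800).

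**Figure D3:**
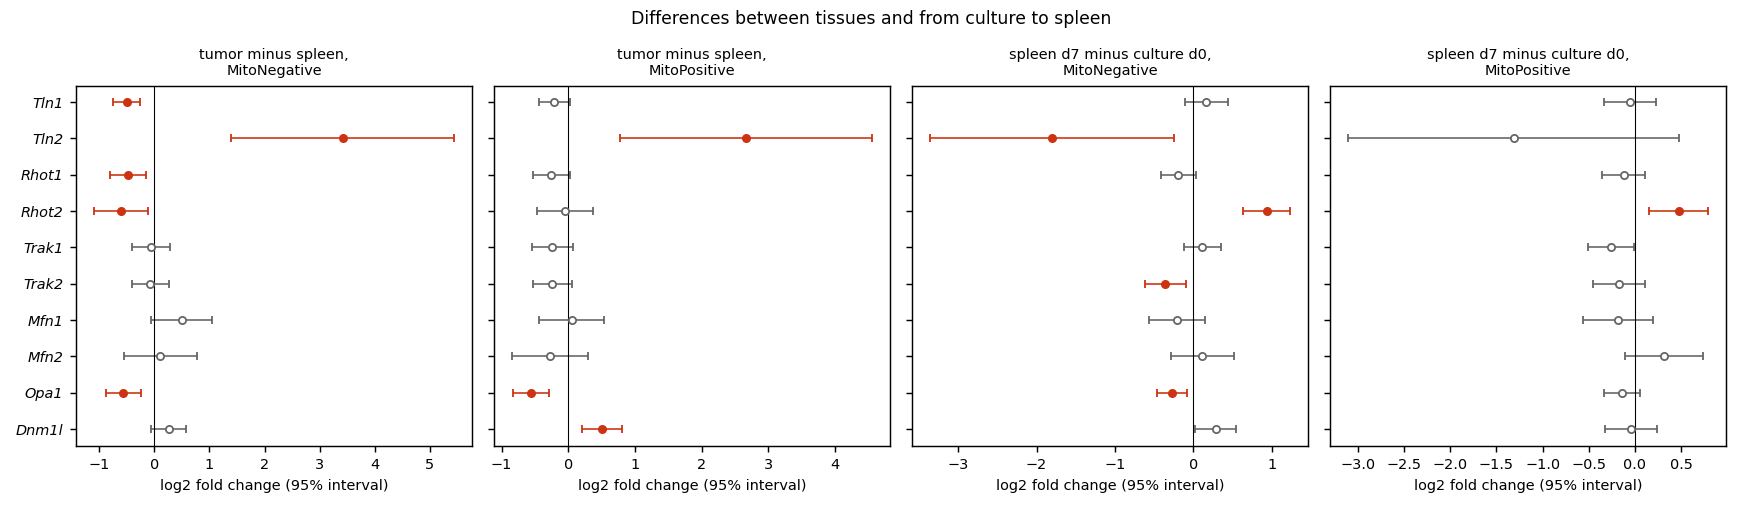
Log2 fold change (x axis, a separate scale in each panel) of each gene (y axis) between tumor and spleen and between spleen at d7 and culture at d0, per arm, with 95% intervals. Filled red points passed an adjusted p of 0.05; Opa1 is lower in tumor in both arms, at -0.56, and Rhot2 is higher in spleen than in culture in both.

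The partners of these genes moved in both directions between tumor and spleen, where 26.8% of all genes were higher and 26.5% lower in MitoPositive cells, and 19.8% and 22.8% in MitoNegative cells. Of 18 tested talin partners and integrin adhesion genes, 10 were lower and 1 higher in MitoPositive tumor cells, and 9 were lower and 2 higher in MitoNegative tumor cells. Apbb1ip, which encodes the adaptor RIAM that brings talin to the membrane, was lower, with log2 differences of -1.81 ± 0.15 and -1.85 ± 0.16 (411 to 105 CPM in MitoPositive and 375 to 100.03 CPM in MitoNegative cells, edgeR adjusted p = 2.36e-06 and 4.58e-06). Itgb7, the beta 7 integrin chain, gave -2.69 ± 0.25 and -2.92 ± 0.27 (adjusted p = 5.19e-06 and 7.62e-06). Vcl, which encodes the talin-binding protein vinculin, rose by 2.23 ± 0.31 in MitoPositive cells (4.43 to 31.2 CPM, adjusted p = 9.13e-05).

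Of 20 tested actin protrusion and nanotube genes, 3 were higher and 6 lower in MitoPositive, and 3 higher and 11 lower in MitoNegative tumor cells. Myo10, the filopodial myosin, rose by 4.72 ± 0.40 and 4.41 ± 0.38 (4.07 to 89.8 and 4.93 to 79.7 CPM, edgeR adjusted p = 2.89e-06 and 4.84e-06). Rac2 was lower at -0.61 ± 0.10 and -1.10 ± 0.10, and Actr3, a subunit of the Arp2/3 actin nucleator, at -0.56 ± 0.09 and -0.81 ± 0.09. The motor adaptor list had 1 of 15 higher and 2 lower in MitoPositive, and 0 higher and 1 lower in MitoNegative cells. Its higher gene was Klc1, a kinesin light chain (0.64 ± 0.17, adjusted p = 0.00617), and Disc1 was lower in both arms (-1.23 ± 0.29 and -1.37 ± 0.37). The motor adaptor counts lay below these shares of all genes in both directions and arms.

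Markers of other cells moved in the same comparisons. All 3 tested B cell markers were lower in tumor in each arm, at summed levels of 2.70 to 2.76 against 18.6 to 36.5 CPM in MitoPositive and 0.700 to 4.03 against 22.0 to 63.2 CPM in MitoNegative cells. In MitoNegative tumor samples 1 to 2 of the 4 B cell markers had a UMI. Of 10 myeloid markers 6 were lower in MitoPositive cells (44.9 to 85.6 against 149 to 866 CPM) and 2 in MitoNegative cells (38.3 to 292 against 131 to 248 CPM). Of 5 melanoma markers 1 was lower in MitoPositive and 1 higher in MitoNegative tumor cells, and the 1 tested stromal marker was higher in the latter. With barcodes holding 3 or more UMIs of these markers left out, Opa1 differed by -0.57 in each arm (edgeR adjusted p = 0.00137 and 0.00891), Dnm1l by 0.46 in MitoPositive cells (0.017) and Tln1 by -0.50 in MitoNegative cells (0.00255). Their part in the values of the partner genes was not tested.

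The lists of inner membrane and quality control genes are read against the same shares of all genes. Of 9 tested proteases and fusion partners, 6 were higher and 1 lower in each arm: the prohibitin gene Phb2, which stabilises inner membrane proteins, rose by 1.23 ± 0.15 and 1.30 ± 0.15 (edgeR adjusted p = 4.53e-05 and 3.17e-05), while Oma1, a protease that cleaves Opa1, fell by 1.19 ± 0.19 in MitoNegative cells (adjusted p = 0.000355). Of 9 cristae genes 5 and 4 were higher and 0 lower, with Mtx1 at 0.98 ± 0.15 and 0.75 ± 0.16. Of 14 mitophagy genes 5 were higher and 1 lower in MitoPositive, and 7 higher and 2 lower in MitoNegative cells. The mitophagy receptor gene Sqstm1 rose by 1.23 ± 0.14 and 1.37 ± 0.14, and Optn, another receptor, by 3.26 ± 0.47 and 3.497 ± 0.45. Of 12 tested fission adaptors and regulators 2 were higher in each arm, and 1 and 0 were lower. In MitoPositive tumor cells 9 of 12 G2/M genes were higher than in spleen, whereas in MitoNegative cells none passed and their median log2 difference was -0.42 (summed levels of 430 to 1349 CPM in tumor and 823 to 1531 CPM in spleen). Leaving out the cycling clusters gave Opa1 differences of -0.59 and -0.63, but this removed cells of the spleen (2503 of 3423 remained in the MitoNegative sample of donor 1) and almost none of the tumor (667 of 670 and 114 of 116 remained in the samples of donor 3). Cluster 2 held 1163 of the 1837 MitoPositive tumor cells and was not counted as cycling, so the part of G2/M genes in the Opa1 difference was not tested.

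**Figure D4:**
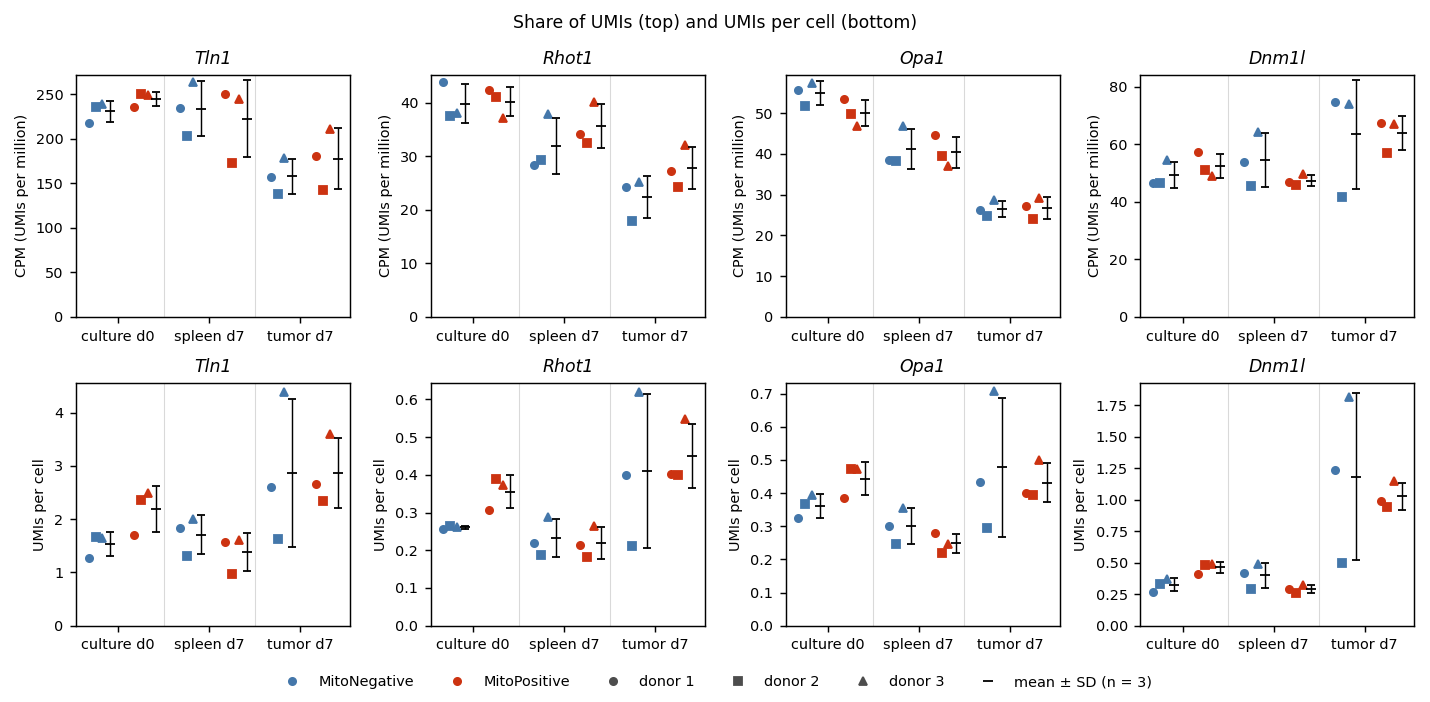
Tln1, Rhot1, Opa1 and Dnm1l as CPM (top row) and as UMIs per cell (bottom row), both axes from 0, in the 6 groups. Points are samples, coloured by arm and shaped by donor, with mean ± SD over 3 donors. Opa1 is lower in tumor than in spleen as CPM and higher as UMIs per cell, while Dnm1l is higher on average on both scales.

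From culture to spleen, 1 of 10 members was called in MitoPositive cells, where 43.1% of 12829 genes were called (22.2% higher and 20.9% lower), and 4 of 10 in MitoNegative cells (1 higher, 3 lower), where 58.1% were called (31.4% higher and 26.6% lower). Both shares were below the background. Rhot2 was higher in spleen in both arms, and Opa1, Trak2 and Tln2 were lower in MitoNegative cells. Tln2 passed the count filter of this fit only with the help of tumor samples. All culture samples came from 1 library, so day and library cannot be told apart in these values.

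Rhot2, the Miro gene with the clearest change over time, stood at 12.1, 10.98 and 10.2 CPM in MitoNegative culture and at 17.97, 19.3 and 20.02 CPM in MitoNegative spleen. It rose by 0.93 ± 0.14 on the log2 scale (SE, n = 3 per group, edgeR adjusted p = 2.14e-05), and it passed under all 13 alternatives, with values from 0.84 to 1.02. In MitoPositive cells it went from 11.2, 12.1 and 12.9 to 14.9, 14.4 and 27.8 CPM, a rise of 0.48 ± 0.15 (adjusted p = 0.0168). That call was lost with DESeq2 (adjusted p = 0.0805), with no count filter (0.0888), after thinning (0.144), without donor 1 (0.165) and without donor 2 (0.129). Spleen values lay above all culture values in both arms, which held for 65.9% of genes (in either direction) in MitoNegative and 50% in MitoPositive cells. Wdr90, the gene that shares bases with Rhot2, was also higher in MitoNegative spleen (1.41 ± 0.38, adjusted p = 0.00391), and its part in the Rhot2 counts was not tested.

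G2/M genes differed in the same comparison, with 12 of 12 higher in MitoNegative spleen and 7 of 12 lower in MitoPositive spleen than in culture. Within the 8 samples that held at least 20 cells of cycling clusters, Rhot2 was higher in cycling than in other cells in 8 of 8, by a median of 0.22 on the scale of log2(CPM + 1), and Opa1 was lower in 7 of 8, by a median of -0.25. These 8 samples included no MitoNegative culture sample and no tumor sample. Cycling cells also carried more UMIs, with a median of 18775 against 6747 in the MitoPositive culture sample of donor 1. The share of all genes that were higher in cycling cells was not computed. With cycling clusters left out, the Rhot2 difference in MitoNegative cells was 0.88 (edgeR adjusted p = 5.88e-05), and the part of cycling in it was not tested.

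The 3 lower members gave small or sparse differences. Opa1 fell in MitoNegative cells from 55.7, 51.7 and 57.3 to 38.5, 38.3 and 46.8 CPM, by 0.27 ± 0.09 (edgeR adjusted p = 0.0134). Its call was lost without donor 1 (0.101), without donor 2 (0.0914), with no count filter (0.0954) and after thinning (-0.18, adjusted p = 0.320). Trak2 fell from 43.4, 37.8 and 39.1 to 27.0, 24.6 and 34.0 CPM, by 0.36 ± 0.13 (adjusted p = 0.0209), and was lost without donor 1 (0.113) and without donor 2 (0.142). Tln2 went from 4, 8 and 9 UMIs to 10, 1 and 1 UMIs, with spleen levels of 0.376, 0.126 and 0.241 CPM. It fell by 1.80 ± 0.74 (adjusted p = 0.0444), which did not pass with donor as a replicate block (0.0537), with DESeq2 (0.0513) or without any 1 donor. In all it passed under 4 of 12 alternatives. Tln2 could be tested here only because tumor samples, outside this comparison, brought it past the count filter. In MitoPositive cells Opa1, Trak2 and Tln2 differed by -0.14 ± 0.10, -0.17 ± 0.13 and -1.31 ± 0.86 (adjusted p = 0.250, 0.307 and 0.226). Dnm1l differed by 0.28 ± 0.13 in MitoNegative cells (adjusted p = 0.0592) and passed with the donor block (0.28, adjusted p = 0.0442).

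Depth per cell moved with these comparisons. Cluster 0 of the culture cells had a median of 2119 UMIs, against 8017 to 18320 in the other culture clusters, and held 23.1% to 41.4% of each culture sample. Its Opa1 level was 86.3 CPM against 38.7 to 57.8 CPM in the other clusters, and its Dnm1l level 72.5 against 40.7 to 51.6 CPM. Tln1 went the other way, with 183 CPM there against 228 to 279.8 CPM, and Rhot2 (10.7 against 10.3 to 14.7 CPM) and Mfn2 (14.7 against 11.5 to 17.0 CPM) lay within the range of the other clusters. Cluster 5 of the d7 cells had a median of 1755 UMIs and held up to 10.7% of a spleen sample and at most 0.581% of a tumor sample. Opa1 stood there at 88.0 CPM against 21.3 to 46.1 CPM elsewhere, Tln1 at 272 against 95.6 to 248 CPM, Rhot1 at 66.9 against 17.7 to 37.5 CPM and Dnm1l at 102 against 37.9 to 64.9 CPM. The thinned values given above leave out most of these cells.

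Around the members, where 22.2% of all genes were higher and 20.9% lower in MitoPositive and 31.4% and 26.6% in MitoNegative cells, 8 of 19 tested adhesion genes were higher in spleen than in culture in each arm, with 2 lower in MitoPositive and 4 in MitoNegative cells. Itgb1, the beta 1 integrin chain, rose by 2.45 ± 0.17 and 2.84 ± 0.17 (198 to 1002 and 172 to 1110.1 CPM, edgeR adjusted p = 6.33e-09 and 3.56e-10), and Itgb2, the beta chain of LFA-1, by 1.33 ± 0.18 and 1.13 ± 0.17. Of 20 protrusion genes 6 and 11 were higher and 2 and 1 lower, among them Cdc42, a GTPase of filopodia, at 0.79 ± 0.11 and 1.19 ± 0.11. Of 14 mitophagy genes 1 and 2 were higher and 6 were lower in each arm. Pink1, the kinase that marks damaged mitochondria, was lower at -0.97 ± 0.13 and -1.37 ± 0.12, and Bnip3l, a mitophagy receptor, at -0.52 ± 0.10 and -0.82 ± 0.09.

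Of 9 fusion partners 3 were higher in each arm and 1 and 3 lower, with Phb at 1.58 ± 0.15 and 1.43 ± 0.15. Of 12 fission genes 3 and 5 were higher and 1 and 2 lower; Fis1, an outer membrane fission receptor, rose by 0.41 ± 0.15 and 0.77 ± 0.14. Of 9 cristae genes 2 and 4 were higher and 0 lower. Of 16 motor adaptors 4 were higher in each arm and 1 and 3 lower, with Fez2, a kinesin adaptor, lower at -0.94 ± 0.14 and -1.03 ± 0.13. Markers of other cells were higher in spleen as well: 10 and 9 of 10 myeloid markers (149 to 866 and 131 to 248 CPM in MitoPositive and MitoNegative spleen against 4.62 to 8.21 and 3.88 to 6.87 CPM in culture) and 3 of 3 tested B cell markers in each arm (18.6 to 36.5 and 22.0 to 63.2 against 7.68 to 9.06 and 8.41 to 14.4 CPM). In culture 3 to 5 of the 10 myeloid markers had a UMI. With barcodes holding 3 or more UMIs of such markers left out, Rhot2 rose by 0.50 and 0.95 (edgeR adjusted p = 0.00756 and 3.48e-06), and the markers' part in the other genes' values was not tested.

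Over the 6 groups the order of mean levels was clear for few members. Opa1 stood highest in culture (54.9 ± 2.89 CPM MitoNegative and 50.1 ± 3.22 MitoPositive, SD), then in spleen (41.2 ± 4.84 and 40.4 ± 3.81) and lowest in tumor (26.6 ± 1.98 and 26.7 ± 2.64), with overlap between the arms of a place and none between neighbouring places in this order. Culture and spleen did not overlap for 65.9% of all genes in MitoNegative and 50% in MitoPositive cells, and tumor and spleen for 47.9% and 57.6%. The step of Opa1 from culture to spleen was not called in MitoPositive cells. In MitoNegative cells its call was lost after thinning. For Tln1 every neighbour in the order overlapped, from 245 ± 8.16 CPM in MitoPositive culture to 158 ± 19.99 in MitoNegative tumor. Rhot1 ran from 40.2 ± 2.72 CPM in MitoPositive culture to 22.4 ± 3.98 in MitoNegative tumor with every neighbour overlapping. Dnm1l ran from 63.9 ± 5.91 CPM in MitoPositive tumor to 47.4 ± 1.90 in MitoPositive spleen, again with every neighbour overlapping.

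As a description over the 18 samples, which share libraries and differ in depth per cell, the genes whose log2 CPM was most correlated with Opa1 were Itch, 5031425E22Rik, Pura, Synj1 and Ncor1 (Pearson r 0.981 to 0.987, among genes of a mean of at least 20 CPM). For Tln1 they were Was, Actr3, Lrrfip1, Fgfr1op2 and Myh9 (r 0.892 to 0.928). For Rhot2 they were Racgap1, Psmd10, 1500009L16Rik, Mpnd and Med8 (r 0.878 to 0.914), and for the sparse Tln2 Klc1, Prpf18, Chchd10, Mtmr2 and Cenpq (r 0.800 to 0.853).

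In the GRCm38 annotation (GENCODE M21) Tln1 lies on chromosome 4 from 43531519 to 43562691 and Tln2 on chromosome 9 from 67217087 to 67559703, both on the minus strand. Rhot2 lies on chromosome 17 from 25838457 to 25844851 on the minus strand, and Dnm1l on chromosome 16 from 16312230 to 16358959 on the minus strand, the chromosome that also holds Opa1. Tln1 shares 360 bases at its start with Creb3 on the opposite strand, which was lower in MitoPositive tumor than spleen cells (-0.59 ± 0.22, adjusted p = 0.0413) and not called in MitoNegative cells (-0.40 ± 0.26, adjusted p = 0.228). Whether counting used strand, or took in reads from introns, is not given in the sources used here.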

How the data were processed

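The deposited matrices hold whole-number UMI counts per gene and hashtag, written by Cell Ranger 7.0.0 per the file headers; the submitters' processing notes also name Seurat 4.0.5 and mm10 (GRCm38). Libraries were made with a 3′ droplet kit, per the labels' protocols. Barcodes with at least 500 genes and under 15% mitochondrially encoded UMIs were kept (17458 of 18092), and assigned to the top hashtag at 10 or more UMIs and 3 times the next, which removes cross-sample doublets; no doublet caller was run. Cells were clustered per day (scanpy 1.11.5, Leiden resolution 0.5); 2 clusters with under 50% of cells holding a Cd3 UMI were left out, leaving 16367 cells. Counts were summed per hashtagged sample and tested with edgeR 4.0.16 (filterByExpr, TMM, quasi-likelihood, Benjamini-Hochberg), and these fits were tested on simulated data. The simulated counts were drawn from the kind of model that edgeR itself fits, and their outcome is not reported here. They held no donor, library or cell mixture effects, so they cannot speak to those parts of the design. Culture was fitted alone, d7 with donor (library) as block, and day differences over 18 samples without block. Standard errors derive from the F statistic.

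Donor pairs samples, since arms share the donor mouse. Deviations of same-donor samples correlated at 0.064 to 0.20 in culture and -0.10 to 0.25 at d7. Those of different donors correlated at -0.19 to 0.027 and -0.21 to 0.18, so every same-donor pair in culture lay above every different-donor pair. The main culture fit, which gave the culture p-values and shares, leaves this pairing out. With donor as block more genes and 0 members were called there, as given below. Alternatives were DESeq2 1.42.0, its size factors, no count filter, HTODemux (Seurat 5.3.0), thinning, cycling clusters left out, the block, donors left out and the other d0 hashtag map. Members, gene lists and tests were chosen with earlier results of these data known. All members are named, as are up to 3 called genes of lowest adjusted p per list and comparison and the 5 genes most correlated with Tln1 and with members called at least 2 times. Promoter sequences are from RefSeq (GRCm38.p6); 9 of 10 members matched.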

Additional observations from a re-analysis of the deposited data

Results flagged for a closer look

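Trak1 was flagged because its arm difference went opposite ways in every donor in culture and after transfer. The log2 difference of MitoPositive over MitoNegative cells was 0.15 in culture, where all 3 donors were higher, and -0.37 in tumor and -0.19 in spleen, where all 3 donors were lower. None of the 3 values passed the threshold. The difference between the tumor and spleen values was not called, and the difference of culture from either was not tested.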

How the results depend on the processing

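The fission, fusion, transport and talin genes gave 1048 values on the same side of the threshold over all alternatives, 51 that no longer passed, 8 that newly passed and 2 called values that changed sign. Of the 1048, 929 were uncalled in both fits, and 72 of these had the other sign. Both reversals were Tln2 between tumor and spleen in MitoNegative cells, with -4.45 without donor 3 and -4.27 without that donor's MitoNegative tumor sample; leaving out 1 donor or sample gave -4.45 to 4.47. The causes were not tested.

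Members called between arms and for the difference of effects stayed at 0 under every alternative run. Between tumor and spleen in MitoNegative cells 3 members passed with DESeq2's size factors, DESeq2, no count filter or HTODemux, and 0 after thinning (9 tested); leaving out 1 donor or sample gave 0 to 5, and 0 to 3 in MitoPositive cells. From culture to spleen 0 members passed in MitoPositive cells with DESeq2 or no count filter, and leaving out gave 0 to 2 there and 1 to 4 in MitoNegative cells. Calls over all genes moved under the alternatives too, as given next, so these changes are not read as particular to the members. The share of all genes called in each of these fits is not given here.

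Over all genes, culture arm calls (1059) became 1623 with no count filter, 437 after thinning, 616 without cycling clusters, 2295 with donor as a replicate block and 0 under the other hashtag map, and 22 to 1542 with 1 donor or sample left out. Tumor arm calls (48) became 174 with DESeq2, 720 with no filter, 76 with HTODemux, 22 after thinning, 25 without barcodes of other cell markers (chosen after seeing the data, as were the single left-out d7 samples) and 0 to 116 on leaving out. Spleen arm calls (333) became 580, 844 and 570 with DESeq2, no filter and thinning, 60 without cycling clusters, 851 without other-marker barcodes and 0 to 918 on leaving out. The difference of effects (0) became 160, 820, 9 and 26 with DESeq2, no filter, HTODemux and thinning, 55 without other-marker barcodes, 2 with no replicate block and 0 to 480 on leaving out. Between tissues, leaving out gave 3782 to 7181 and 3388 to 5205 calls in MitoPositive and MitoNegative cells (6384 and 5100 of 11983 in the main fits), and thinning 2336 in the latter. Between days leaving out gave 2520 to 5928 and 5106 to 7599 in the same order (5528 and 7449 of 12829 in the main fits). Without the replicate block Rhot1 did not pass between tissues in MitoNegative cells (-0.42, adjusted p = 0.0516); beside this and the Tln2 and Dnm1l day differences given above, the block changed no member's call. Samples of 30 to 116 cells limit what MitoNegative tumor values can show.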
